A study of Mus musculus with 9 samples.

Results

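ST2 cells are a wild-type mouse marrow stromal line, established from a Whitlock-Witte type long-term marrow culture, that supports blood-forming cells and can be driven towards bone and fat. The comparison described here sets 3 RNA-seq libraries of ST2 cells collected 3 h after they were given dying neutrophils against 3 libraries of ST2 cells that were given none and were collected at 24 h, which is 6 of the 9 libraries of the study. The neutrophils were human, isolated from blood, held at -80 °C for at least 18 h so that they were end-stage, stained with 20 µM eFluor670 and supplied at 10 for each ST2 cell. Fed cells were then sorted by flow cytometry for dye uptake equal to at least 1 whole neutrophil. The study's other group was fed and sorted in the same way but collected at 24 h (3 libraries). It entered the filter, the scaling and the estimate of spread, which used all 9 libraries. Below it is also set beside the other groups and tested against them. The fed 3 h and unfed 24 h groups differ in feeding, in sorting for uptake and in time in culture, and no unfed library at 3 h was used, so these cannot be told apart in any difference below. The libraries carry replicate numbers, but nothing states that they came from separate cultures, so p-values measure only the spread between these libraries. All of them are of 1 cell line.

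Stromal cells of the marrow can engulf dying neutrophils, a process called efferocytosis. The eater binds phosphatidylserine exposed on the dying cell, either directly or through bridging proteins and receptor tyrosine kinases, closes its actin-driven membrane around it, and digests it in lysosomes. Digestion delivers lipid, cholesterol, nucleotides, amino acids and iron to the eater. The same stromal cells are known for secreting the niche factors that hold blood stem cells in the marrow, chiefly the chemokine CXCL12 and stem cell factor, and for giving rise to osteoblasts and adipocytes.

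The 6 libraries held between 44442664 and 51205019 counted reads. In a principal component analysis of the 6, the first component took 66% of the variance and set the fed 3 h libraries (-30.5, -28.1 and -27.2) apart from the unfed libraries (38.0, 22.6 and 25.1), among which replicate 1 stood farthest out. Reads on mitochondrial genes made up 1.12% to 1.58% of the fed 3 h libraries and 1.48% to 1.61% of the unfed ones. Genes linked to ribosomal RNA made up 0.249% of fed 3 h replicate 3, against 0.0904% to 0.115% in the other 5 libraries. Levels are given as CPM (counts scaled to a common library total), scaled by TMM, and differences as log2(fed 3 h / unfed 24 h) with a standard error (SE) from edgeR's quasi-likelihood fit. "Higher" and "lower" are used of genes with a Benjamini-Hochberg adjusted p under 0.05 over all genes tested. Rises, falls, gains and losses name the same differences between groups and do not tell feeding from time.

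Marrow stromal markers were abundant in both groups. Of 16 such markers 15 passed the filter on low counts, and they summed to 39290 to 40700 CPM in the fed 3 h libraries and 39360 to 41560 CPM in the unfed ones. Single markers differed: 5 were higher and 7 lower, 80% in all against 50.6% of all genes. Of these, 1 and 3 had a log2 difference of at least 1. The marker that did not pass was Thy1, a surface glycoprotein often used to define stromal cells, with 1 read over the 3 fed 3 h libraries and 0 over the unfed ones. Neutrophil markers, which are mouse genes here and no measure of RNA from the human neutrophils, summed to 1.698 to 2.66 CPM after feeding and 3.14 to 4.12 CPM without it, with 3 of 21 tested and 7 at 0 in every one of the 6 libraries, among them S100a9, Ngp and Ctsg. Of the 3 tested, 1 was higher and 2 were lower, which were Camp (0.911 against 2.54 CPM) and Mmp9 (0.293 against 0.730 CPM). Macrophage markers summed to 28.0 to 29.1 CPM against 23.3 to 25.4 CPM, most of it from the lipopolysaccharide co-receptor Cd14 (23.4 against 18.4 CPM), while Adgre1, C1qa and Tyrobp were at 0. Lymphocyte markers summed to 5.22 to 7 CPM against 3.67 to 4.20 CPM, endothelial markers to 2.72 to 3.44 CPM against 2.92 to 3.31 CPM, and erythroid and platelet markers to 4.66 to 5.32 CPM against 4.82 to 4.91 CPM. The part of such transcripts in the differences below was not tested.

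The groups differed in very many genes, most of them by a small amount. Of 13568 genes tested, 3408 (25.1%) were higher after 3 h of feeding and 3460 (25.5%) lower, together 50.6%. The CPM of the groups did not overlap in 7892 genes (58.2%). Counts in the gene lists below are to be read against these shares. The median size of a called difference was 0.33 on the log2 scale, and the median over all genes was -0.01. A log2 difference of at least 1 was reached by 305 higher genes (2.25%) and 410 lower genes (3.02%), and one of at least 2 by 58 and 81. Of the 305, 151 had a mean under 1 CPM and 76 one of 1 to 10 CPM. The share called grew with level, from 23.0% of genes under 1 CPM to 65.7% of the 105 most abundant genes. Protein-coding genes were called more often (54.6%) than long intergenic RNAs (30.7%) and antisense RNAs (24.8%), which are also less abundant.

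**Figure D1:**
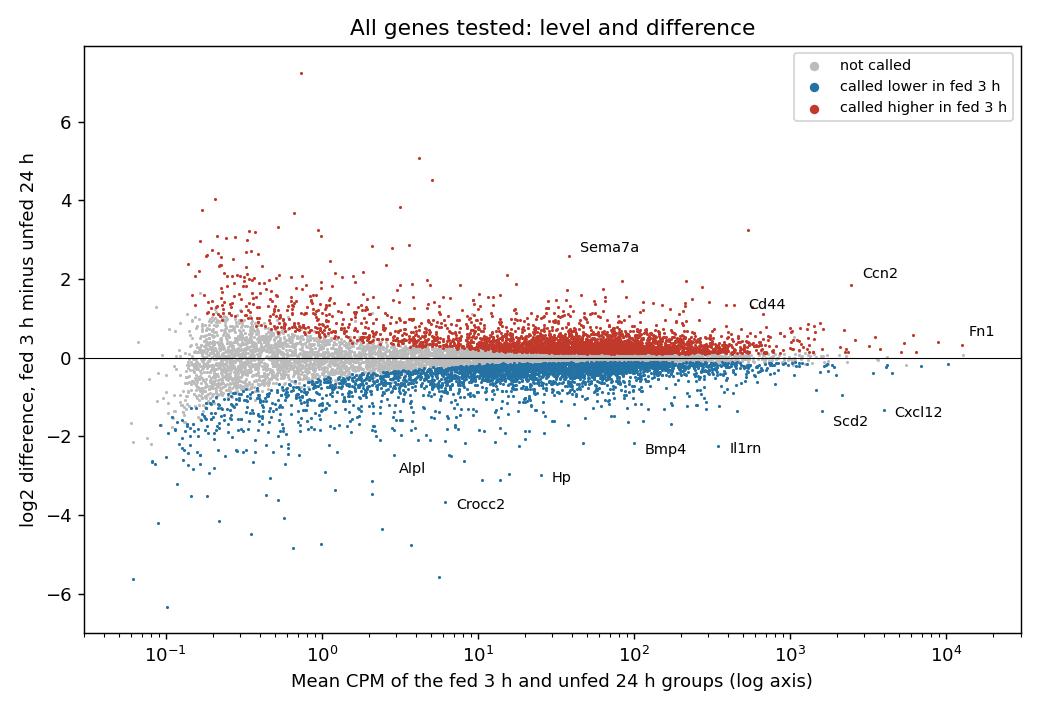
Each point is 1 of the 13568 genes tested, with its mean CPM over the 2 groups on a log axis and the log2 difference between fed 3 h and unfed 24 h cells. Red points were higher and blue points lower at an adjusted p under 0.05, grey points were not called, and named genes are described in the text, from Sema7a at 2.59 to Crocc2 at -3.66.

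The largest rises among abundant genes were ranked over called genes with at least 10 CPM in the higher group and no overlap between groups, and 14 of the first 15 are described here. Sema7a, a membrane-anchored semaphorin that signals through integrins, stood at 84.8, 56.3 and 57.0 CPM in the fed 3 h libraries and at 10.1, 11.5 and 11.3 CPM in the unfed ones. The groups were far apart, and the fed replicate 1 was the highest of all. The log2 difference was 2.59 (SE 0.13). The other 13 had log2 differences down to the 1.54 of Cd300lb.

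Several of these genes act in the matrix or at the cell surface. Tnc, the matricellular protein tenascin C, had 400, 318 and 305 CPM in fed 3 h cells against 74.0, 93.2 and 97.6 CPM in unfed ones (log2 1.95, SE 0.10). Timp3, a matrix-bound inhibitor of metalloproteases, stood at 490, 391 and 401 CPM against 111, 126 and 129 CPM (log2 1.81, SE 0.08). Adamts6, a secreted metalloprotease, had 25.1 ± 2.41 CPM against 5.79 ± 1.28 CPM (SD, n = 3 in each group). Il1rl1, the receptor for interleukin 33, stood at 136, 133 and 130 CPM against 29.2, 37.6 and 36.8 CPM, with little spread inside either group (log2 1.94, SE 0.07). Cd300lb, an immune receptor of a family that binds phosphatidylserine and other lipids, had 18.7 ± 1.34 CPM against 6.43 ± 0.255 CPM. Ptgs2, the inducible cyclooxygenase that starts prostaglandin synthesis, had 82.7, 66.1 and 56.6 CPM against 16.7, 21.97 and 29.6 CPM (log2 1.59, SE 0.16). The list also held Hmga2, a chromatin protein of proliferating mesenchyme (97.0 against 28.9 CPM), Acsbg1, an acyl-CoA synthetase for long-chain fatty acids (57.3 against 17.4 CPM), Nipal1, a magnesium transporter (27.4 against 7.49 CPM), Mcf2l, an exchange factor for small GTPases (20.97 against 6.95 CPM), the calcium-binding S100a7a (15.4 against 4.98 CPM) and Aif1l, an actin-binding protein (11.9 against 3.31 CPM).

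Genes of the contractile cytoskeleton and targets of the coactivator YAP rose together. YAP and TAZ enter the nucleus when cells are spread and under tension and switch genes on with the TEAD factors, while the partners SRF and MRTF read the state of actin and drive smooth-muscle type genes. Of 25 such genes 22 were higher and 1 was lower, with a median log2 difference of 0.45 against -0.01 over all genes, and in 22 the fed 3 h libraries all lay above the unfed ones. Ccn2, a secreted matricellular protein and a standard YAP target (GRCm38 10:24595442-24598683, plus strand), stood at 4317, 3485 and 3781 CPM in fed 3 h cells and at 986, 1112 and 1111 CPM in unfed ones. The log2 difference was 1.85 (SE 0.07, adjusted p = 6.35e-11). In CPM the rise of Ccn2 was among the 8 largest of called genes, clones, pseudogenes and ribosomal proteins left out. Ankrd1, a muscle ankyrin-repeat protein and also a YAP target, had 246, 219 and 254 CPM against 94.1, 99.3 and 111 CPM (log2 1.24, SE 0.10).

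Contractile genes moved by smaller steps from high levels. Acta2, smooth-muscle actin, had 7310 ± 350 CPM against 4889 ± 203 CPM (log2 0.58). Tagln, the actin-binding transgelin, had 884, 863 and 933 CPM against 480, 558 and 522 CPM (log2 0.78, SE 0.05). Tpm1, a tropomyosin that stabilises actin filaments, had 1490, 1372 and 1482 CPM against 764, 925 and 896 CPM (log2 0.75, SE 0.06). The motor Myh9 (log2 0.52), beta-actin Actb (log2 0.37) and vimentin Vim (log2 0.39) were in the same ranking among the called genes that gained most CPM. The regulators changed less: Yap1 differed by 0.14, its partner Wwtr1 (TAZ) by 0.20, Tead1 by 0.42 and Srf by 0.30, all called higher. Ccn1, a matricellular relative of Ccn2, was the exception among the direct targets, at 493 against 479 CPM and not called (log2 0.04, adjusted p = 0.58). Cnn2 was also not called, and Amotl1, a scaffold that holds YAP in the cytoplasm, was lower (log2 -0.20, SE 0.05).

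Promoters of this group are shown because its members moved together. The motif of the TEAD factors (GGAATG, searched on both strands) was found in the 250 bases before the start of 12 of the 21 members with a RefSeq promoter (57.1%), against 12.9% of the promoters of all 9911 tested genes that have one. The CArG box bound by SRF was found in 4 of the 21 (19%), against 1.43% of all. These are descriptions of letters, not of bound sites. The list was made up of YAP targets and contractile genes, so high shares of these motifs describe the list and not the differences. Vcl, the focal-adhesion protein vinculin that ties integrins to actin (1524 against 1081 CPM, log2 0.50), carries both motifs. Ajuba, an adhesion-associated LIM protein that restrains the kinases acting on YAP (155 against 101 CPM, log2 0.62), carries a pair of TEAD motifs. Both were picked after their values were seen. In the sequences, from RefSeq on GRCm38.p6 and written 5′ to 3′ in the direction of the gene, capitals mark TEAD motifs and CArG boxes.
Vcl (chr14:20929148-20929397, plus strand): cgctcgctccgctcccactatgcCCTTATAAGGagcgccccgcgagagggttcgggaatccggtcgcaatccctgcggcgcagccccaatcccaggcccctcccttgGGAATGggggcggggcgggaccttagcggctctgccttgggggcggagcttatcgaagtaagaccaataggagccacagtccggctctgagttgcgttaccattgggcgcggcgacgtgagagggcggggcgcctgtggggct
Ajuba (chr14:54577662-54577911, minus strand): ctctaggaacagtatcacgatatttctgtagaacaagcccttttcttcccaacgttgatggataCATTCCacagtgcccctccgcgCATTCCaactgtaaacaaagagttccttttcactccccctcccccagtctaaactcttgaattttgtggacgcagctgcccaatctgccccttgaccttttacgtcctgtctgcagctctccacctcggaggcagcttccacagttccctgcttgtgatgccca
In Vcl the CArG box lies 227 to 218 bases and the TEAD motif 143 to 138 bases before the start. In Ajuba the TEAD motifs, read on the other strand, lie 186 to 181 and 164 to 159 bases before it.

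Adhesion receptors were higher alongside the cytoskeleton. Of 16 integrin genes 9 were higher and 2 lower (median log2 0.34). Itga5, the fibronectin-binding alpha 5 subunit, had 1012, 832 and 894 CPM against 386, 446 and 434 CPM (log2 1.11, SE 0.07), and its partner Itgb1 had 1775 against 1121 CPM (log2 0.66). Itga6, a laminin receptor subunit, had 14.29, 14.25 and 13.45 CPM against 4.03, 6.84 and 7.03 CPM (log2 1.23). Itga1, a collagen receptor subunit, was lower (32.1 against 40.0 CPM). Cd44, the hyaluronan receptor, had 707, 574 and 590 CPM against 224, 257 and 262 CPM, a log2 difference of 1.33 (SE 0.07). Has2, which makes hyaluronan, had 41.7, 31.4 and 40.2 CPM against 16.8, 17.5 and 16.9 CPM (log2 1.15, SE 0.09). The 3 fed libraries lay above all unfed ones for both Cd44 and Has2, and groups did not overlap in 58.2% of all genes. Of 10 genes of hyaluronan synthesis and binding 4 were higher and 1 lower, 50% in all against 50.6% of all genes.

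Matrix genes split. Of 31 collagens and matrix proteins 15 were higher and 8 lower, with a median of 0.14. Fn1, fibronectin, gained the most CPM, from 11160 ± 473 to 14060 ± 783 (log2 0.33, SE 0.05), and Fbln2, a fibulin of elastic matrix, had 2024 against 1101 CPM (log2 0.88). The fibril-regulating collagen V chains Col5a2 (2753 against 1687 CPM, log2 0.71) and Col5a3 (224, 202 and 219 CPM against 81.3, 95.2 and 80.0 CPM, log2 1.33) were higher. The collagen VI chains, which form beaded microfibrils around cells, were lower: Col6a1 had 1496, 1455 and 1475 CPM against 3094, 2725 and 2771 CPM (log2 -0.96, SE 0.05) and Col6a2 had 1052 against 1870 CPM (log2 -0.83). Lox, the collagen cross-linking oxidase, was also lower (3913 against 5072 CPM). The most abundant collagen, Col1a1, was not called (13250 ± 162 against 12570 ± 630 CPM, log2 0.08, adjusted p = 0.23), and Col1a2 was slightly lower (log2 -0.17, SE 0.05). Among 27 matrix proteases and inhibitors 12 were higher and 11 lower. Adam12, a membrane-anchored protease that sheds growth factors, had 97.0 against 33.4 CPM (log2 1.54), while the aggrecanases Adamts5 (90.3 against 221 CPM, log2 -1.29) and Adamts1 (56.5 against 115 CPM, log2 -1.03) were lower.

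Secreted growth factors of the EGF, FGF, PDGF and VEGF types divided into a higher and a lower block. Of 18 tested, 10 were higher and 6 lower, with a median of 0.47. Fgf2, a mitogen of stromal and endothelial cells, had 108, 88.3 and 89.0 CPM against 32.6, 36.6 and 35.99 CPM (log2 1.44, SE 0.07). Vegfa, the main endothelial growth factor, had 231, 174 and 174 CPM against 64.0, 78.1 and 78.4 CPM (log2 1.39, SE 0.10). The membrane-shed EGF receptor ligand Hbegf had 45.7, 35.0 and 37.8 CPM against 12.3, 18.6 and 18.5 CPM (log2 1.26, SE 0.12). Gdnf, a trophic factor for neurons, had 23.8 against 10.2 CPM (log2 1.22). Lower were Angpt1, the vessel-stabilising TIE2 ligand (122 against 242 CPM, log2 -0.99), and Hgf, the ligand of MET (42.5 against 73.0 CPM, log2 -0.78). In the TGF-beta group 9 of 22 genes were higher and 6 lower. Inhba, the activin A subunit, had 191, 146 and 161 CPM against 50.9, 65.2 and 70.2 CPM (log2 1.42, SE 0.10). Skil, a feedback repressor of Smads, had a log2 difference of 0.87, Tgfb1 one of 0.47, and Smad3, the signal carrier itself, was lower by a log2 difference of -0.31.

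Early-response genes went in both directions, and those best known as immediate reporters of growth-factor signalling were not high at 3 h. Egr1, a zinc-finger factor that appears within minutes of ERK signalling, had 154, 247 and 149 CPM in fed cells against 342, 380 and 473 CPM in unfed ones (log2 -1.12, SE 0.18, adjusted p = 0.000105). Its relatives Egr2 (log2 -1.45) and Egr3 (log2 -1.30) and the mRNA-decay factor Zfp36 (log2 -1.27) were lower as well, and of 28 genes of this kind 10 were higher and 13 lower (median -0.15). Fos, the AP-1 subunit, had 8.70, 29.7 and 18.1 CPM against 21.9, 25.3 and 31.7 CPM. These overlap, and Fos was not called (log2 -0.48, SE 0.27, adjusted p = 0.15). Without fed 3 h replicate 2, the highest of its group, Fos was lower (log2 -0.96, adjusted p = 0.00311). Fosb, a second AP-1 subunit, was called higher at log2 1.32, but its fed libraries held 2.10, 15.7 and 6.43 CPM against 2.33 to 4.05 CPM in unfed ones, and the groups overlap. The call was lost without fed 3 h replicate 2, which held the 15.7 CPM, without unfed 24 h replicate 1 or 3, and with DESeq2 or limma-voom (adjusted p up to 0.299).

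Other members of these families were higher with less spread. Fosl1, the AP-1 subunit FRA-1, had 141, 121 and 126 CPM against 71.4, 81.4 and 87.1 CPM (log2 0.69, SE 0.08). Maff, a small partner of AP-1 factors, had 24.2 against 11.1 CPM (log2 1.13). Of 13 AP-1 subunits and partners 9 were higher and 2 lower, Junb being the lower one with the larger difference (log2 -0.87, SE 0.09). Gadd45b and Gadd45g, stress-inducible regulators of p38 signalling and the cell cycle, had log2 differences of 1.46 and 1.48. Of 16 feedback inhibitors of ERK signalling 9 were higher and 3 lower. The phosphatases Dusp5 (log2 1.04) and Dusp10 (log2 1.03) were higher, whereas Spry1, a receptor-level inhibitor, had 4.34, 4.81 and 5.20 CPM against 25.4, 18.2 and 19.7 CPM (log2 -2.14, SE 0.11). Klf5, a Kruppel-like factor of proliferating cells, had 16.3, 12.5 and 12.1 CPM against 3.02, 4.99 and 6.74 CPM (log2 1.47, SE 0.19). In that family 6 of 12 were higher and 3 lower, with Klf2, a factor of quiescence, at log2 -0.64.

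**Figure D2:**
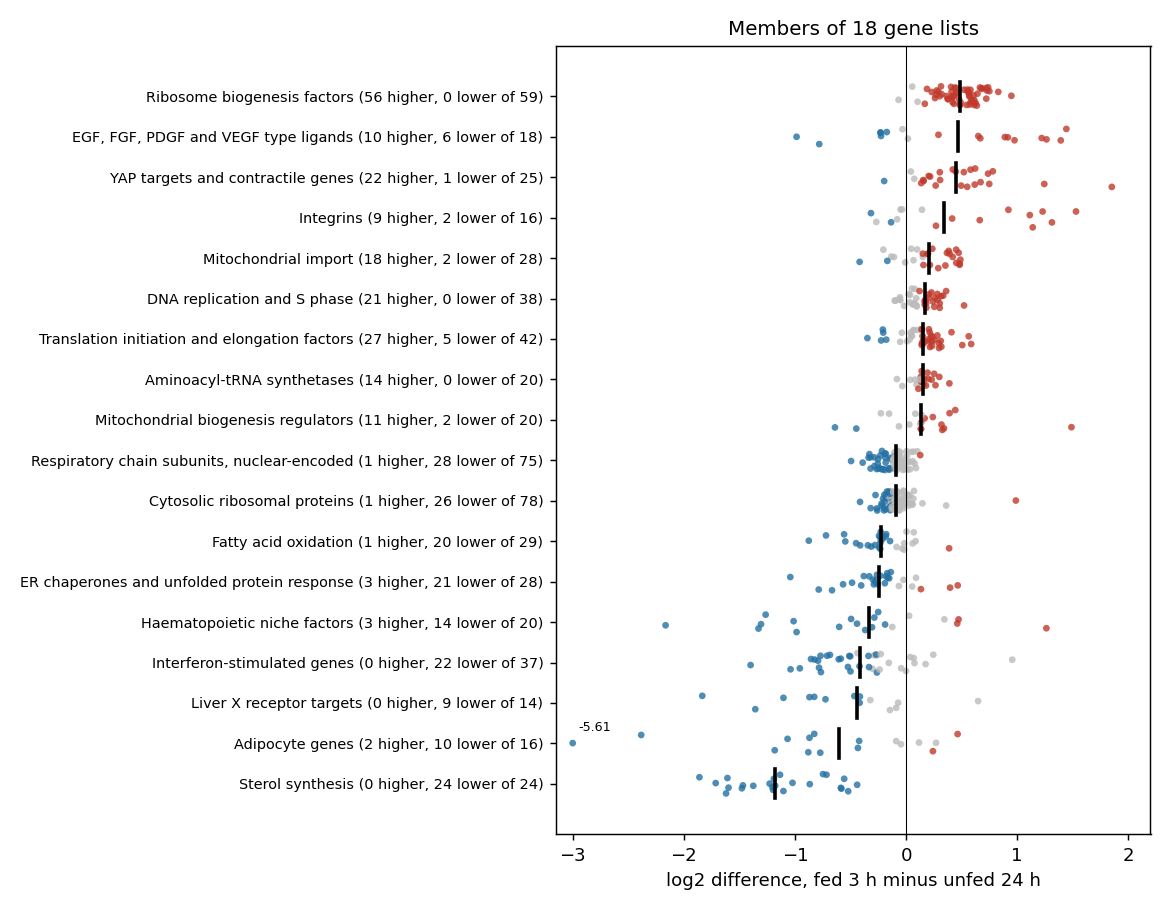
Points are the log2 differences (fed 3 h minus unfed 24 h) of the tested members of 18 gene lists, red where higher, blue where lower and grey where not called, with the list median as a black bar and 1 value of -5.61 drawn at the left edge. Sterol synthesis lies wholly below 0, and 56 of 59 ribosome biogenesis factors lie above 0 as called genes.

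The machinery that builds ribosomes was higher almost throughout. Ribosome biogenesis takes place in the nucleolus, where RNA polymerase I copies the ribosomal RNA genes and many factors cut, modify and fold the transcript. Of 59 such factors 56 were higher and 0 lower, with a median log2 difference of 0.49, and in 57 the fed 3 h libraries all lay above the unfed ones. Gnl3, a nucleolar GTPase (GRCm38 14:31012433-31019152, minus strand), had 90.0, 88.8 and 87.8 CPM against 40.3, 47.9 and 49.9 CPM (log2 0.95, SE 0.07, adjusted p = 3.17e-08). Nolc1, a chaperone of small nucleolar particles, had 280, 254 and 258 CPM against 121, 166 and 158 CPM (log2 0.83). Ncl, nucleolin, had 1693, 1539 and 1594 CPM against 804, 1047 and 1042 CPM (log2 0.74), and Rrs1, an assembly factor of the large subunit, a log2 difference of 0.75. The members not called were Polr1c, Emg1 and Ddx52. Myc, a transcription factor known to drive this programme, had 69.9, 66.1 and 61.2 CPM against 25.5, 39.7 and 39.2 CPM (log2 0.92, SE 0.12). Its antagonist Mxd4 was lower (51.3 against 95.9 CPM, log2 -0.90). Of 10 genes of the MYC network 3 were higher and 3 lower (median 0.03), and without fed 3 h replicate 1 only 1 was higher.

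Other genes of protein synthesis moved less. Translation initiation and elongation factors were higher in 27 of 42 and lower in 5 (median 0.16), with Eif4ebp1, the repressor of cap-dependent initiation (158 against 106 CPM, log2 0.59), and Eif2b3, a subunit of the EIF2 exchange factor (log2 0.56), at the top. The elongation factor Eef1a1 was lower (6465 against 7454 CPM, log2 -0.21). Aminoacyl-tRNA synthetases, which charge transfer RNAs, were higher in 14 of 20 and lower in 0 (median 0.15). Nars, for asparagine, had the largest difference (541 against 413 CPM, log2 0.39). Splicing factors of the SR and hnRNP families were higher in 23 of 38 and lower in 3, with Srsf5 at log2 0.73. Genes for serine, one-carbon and nucleotide synthesis were higher in 15 of 31 and lower in 1, among them Pfas of purine synthesis (80.8 against 54.6 CPM, log2 0.57) and the mitochondrial folate enzyme Mthfd2 (log2 0.47).

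The ribosomal proteins themselves did not share the direction of the factors that assemble them. Of 78 cytosolic ribosomal proteins 1 was higher and 26 were lower, with a median of -0.09. The share lower was near the 25.5% of all genes, and the share higher was far below their 25.1%. Rpl13a had 43.8, 46.4 and 52.96 CPM against 65.3, 61.4 and 64.2 CPM (log2 -0.41). The gene called higher, Rps10, was at only 2.05 against 1.03 CPM (log2 0.99). That low level and the many processed copies of ribosomal protein genes make the counts of single members uncertain. Without fed 3 h replicate 1 the number lower was 8, without fed 3 h replicate 2 it was 17, and without unfed 24 h replicate 1 it was 12.

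Genes of sterol synthesis were lower without exception in fed 3 h cells. Animal cells make cholesterol from acetyl-CoA through mevalonate, farnesyl pyrophosphate, squalene and lanosterol, and the whole set is under the transcription factor SREBP-2, which is released from the endoplasmic reticulum when membrane cholesterol is low and held there when it is high. All 24 genes tested were lower, 16 of them by a log2 difference of at least 1. The median was -1.18, and in all 24 the 3 fed libraries lay below the 3 unfed ones. Against the fed 24 h libraries, 24 of 24 were also lower in fed 3 h cells, with a median of -1.06.

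The difference covered each stage of the pathway. At its start, Hmgcs1, which makes HMG-CoA, had 138, 129 and 127 CPM against 318, 305 and 297 CPM (log2 -1.23). Mvd, which yields isopentenyl pyrophosphate, had 14.4, 14.8 and 15.4 CPM against 49.6, 46.2 and 39.3 CPM (log2 -1.60). Fdps, farnesyl pyrophosphate synthase (GRCm38 3:89093588-89101959, minus strand), had the largest difference, with 5.14, 4.37 and 4.70 CPM against 18.7, 17.5 and 15.3 CPM (log2 -1.86, SE 0.08, adjusted p = 1.97e-10). In the steps from squalene to cholesterol, the epoxidase Sqle had 186 against 379 CPM (log2 -1.02). Lss, which closes the sterol rings, had 43.8, 46.5 and 45.6 CPM against 151, 135 and 132 CPM (log2 -1.62, SE 0.06). Nsdhl, a C-4 demethylation enzyme, had 56.4, 55.8 and 56.2 CPM against 194, 159 and 160 CPM (log2 -1.61), and the C-14 reductase Tm7sf2 had 3.31 against 10.9 CPM (log2 -1.71).

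The regulators of the pathway were lower too. Insig1, which retains SREBP in the endoplasmic reticulum and is itself a target of it, had 35.0, 38.5 and 40.1 CPM against 117, 101 and 98.7 CPM (log2 -1.48). Srebf2, which encodes SREBP-2, had 315 against 463 CPM (log2 -0.56). The smallest difference of the list was that of the isomerase Ebp (log2 -0.44).

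**Figure D3:**
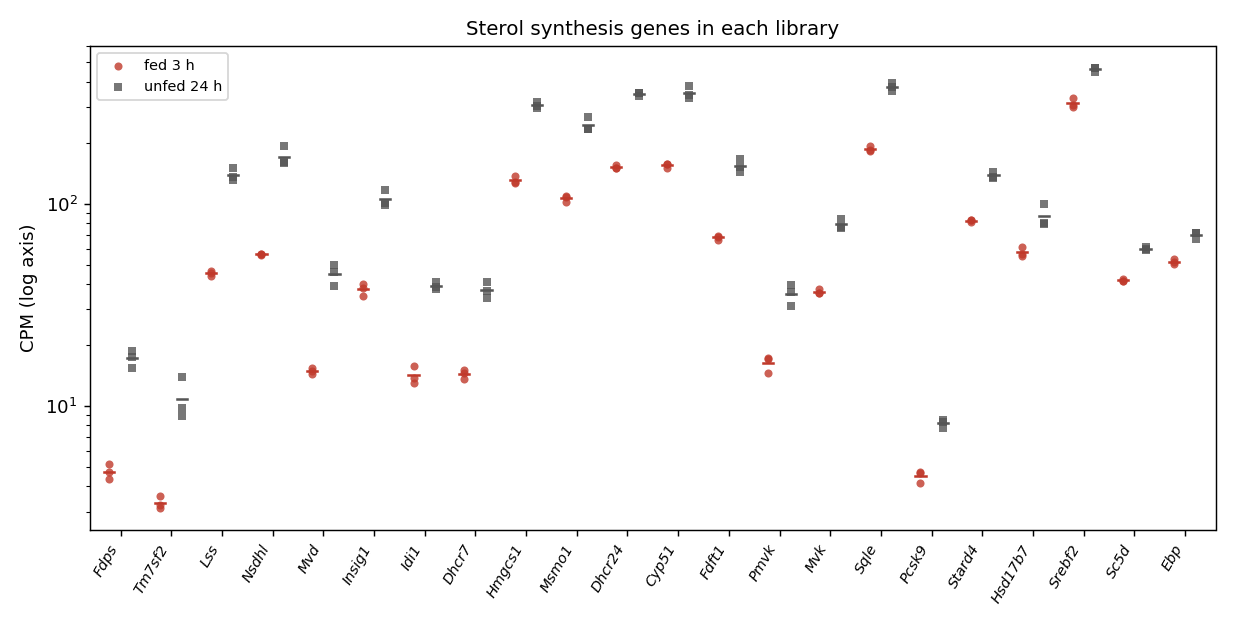
CPM on a log axis of 22 of the 24 sterol synthesis genes in each fed 3 h library (red circles) and each unfed 24 h library (grey squares), with bars at the group means and genes ordered by log2 difference from Fdps (-1.86) to Ebp (-0.44). In every gene drawn the 3 red points lie below the 3 grey ones.

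Stretches upstream of 4 of the 16 sterol genes with a RefSeq promoter are shown because this was the list with no exception. The CCAAT box, the site of the factor NF-Y that works beside SREBP, was present on either strand in the 250 bases before the start of 16 of 16, against 41.3% of all 9911 promoters. The sterol element as spelled here, TCACNCCAC, was present in 1 of the 16, Hmgcs1, against 1.2% of all. Other spellings of the element are known and were not searched. The list is of a pathway under SREBP-2, so its share of CCAAT boxes describes the list and not the differences. The genes shown were chosen after their values were seen. Capitals mark CCAAT boxes (ATTGG on the other strand) and, in Hmgcs1, the sterol element, and stretches that overlap an annotated exon were left off.
Hmgcs1 (chr13:119690101-119690350, plus strand): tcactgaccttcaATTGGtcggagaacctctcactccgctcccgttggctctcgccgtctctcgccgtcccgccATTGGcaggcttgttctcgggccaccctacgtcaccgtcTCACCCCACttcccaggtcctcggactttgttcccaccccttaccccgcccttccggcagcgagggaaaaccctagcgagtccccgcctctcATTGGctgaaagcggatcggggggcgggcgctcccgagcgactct
Mvd (chr8:122443423-122443672, minus strand): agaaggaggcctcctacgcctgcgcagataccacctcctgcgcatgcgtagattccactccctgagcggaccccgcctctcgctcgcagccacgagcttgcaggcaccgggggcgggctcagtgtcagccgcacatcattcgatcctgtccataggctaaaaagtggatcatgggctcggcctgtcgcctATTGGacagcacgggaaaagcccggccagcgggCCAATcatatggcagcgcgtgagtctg
Lss (chr10:76531355-76531587, plus strand): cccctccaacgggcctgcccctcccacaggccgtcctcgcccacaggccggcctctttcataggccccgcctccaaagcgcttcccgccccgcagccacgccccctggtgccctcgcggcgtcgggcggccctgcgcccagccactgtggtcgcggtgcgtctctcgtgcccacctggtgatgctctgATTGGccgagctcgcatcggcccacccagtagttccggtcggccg
Insig1 (chr5:28071162-28071362, plus strand): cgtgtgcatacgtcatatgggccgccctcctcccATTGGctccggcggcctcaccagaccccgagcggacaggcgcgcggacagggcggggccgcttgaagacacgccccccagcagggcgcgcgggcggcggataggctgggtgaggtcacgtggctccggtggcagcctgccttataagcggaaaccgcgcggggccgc
In Hmgcs1 the sterol element lies 137 to 129 bases before the start, between CCAAT boxes at 176 to 172 and 45 to 41 bases.

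Other lipid genes were lower with the sterol set. The liver X receptors sense oxysterols and switch on cholesterol export and fatty acid desaturation. In a list of 14 genes, their targets together with the receptor genes Nr1h2 and Nr1h3, 0 were higher and 9 lower (median -0.44). Scd2, a desaturase that makes oleate (GRCm38 19:44293674-44306864, plus strand), had 902, 899 and 914 CPM against 2584, 2221 and 2147 CPM (log2 -1.36, SE 0.06). Among called genes, clones, pseudogenes and ribosomal proteins left out, only Cxcl12 lost more CPM. Scd1 had 266 against 486 CPM (log2 -0.87) and lipoprotein lipase Lpl 192 against 340 CPM (log2 -0.83). The exporter Abca1, at 1.82 against 2.27 CPM, was not called (log2 -0.32, adjusted p = 0.10). Genes of fatty acid oxidation were higher in 1 of 29 and lower in 20 (median -0.23). The medium-chain dehydrogenase Acadm had 55.6, 54.3 and 56.8 CPM against 99.1, 87.8 and 87.9 CPM (log2 -0.72), and the acyl-CoA synthetase Acsl3 had a log2 difference of -0.88. Its relative Acsl4 was the one higher member (log2 0.39).

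Among adipocyte genes, 10 of 16 were lower and 2 higher, with a median of -0.60. Cebpa, a transcription factor of fat differentiation, had 44.3, 43.4 and 46.9 CPM against 107, 89.9 and 85.2 CPM (log2 -1.07), and the lipid carrier Fabp4 had 4.49 against 10.2 CPM (log2 -1.18). Pparg, the master regulator of fat cells, went the other way, with 62.8, 58.2 and 56.3 CPM against 42.5, 42.7 and 43.3 CPM (log2 0.46, SE 0.05). Several of these genes, Scd1 and Lpl among them, also stand in the liver X receptor list.

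Factors by which marrow stroma keeps blood-forming cells were lower. Of 20 niche genes 14 were lower and 3 higher, with a median of -0.34. Cxcl12, a chemokine holding blood stem cells in place (GRCm38 6:117168535-117181367, plus strand), had 2215, 2360 and 2251 CPM in fed 3 h cells against 6594, 5096 and 5447 CPM in unfed ones (log2 -1.33, SE 0.07, adjusted p = 1.54e-09). Kitl, stem cell factor (GRCm38 10:100015630-100100416, plus strand), had 167, 166 and 167 CPM against 474, 364 and 398 CPM (log2 -1.30, SE 0.07). The fed libraries agree closely with each other in both genes, and unfed replicate 1 is the highest of its group in both.

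Bmp4, a bone morphogenetic protein (GRCm38 14:46383520-46390669, minus strand), had the largest fall of the list, with 32.6, 39.8 and 37.6 CPM against 185, 162 and 146 CPM (log2 -2.16, SE 0.08). Vcam1, an adhesion molecule for leukocytes, had 37.7 against 57.2 CPM (log2 -0.60), and Igf1 1.00 against 2.40 CPM (log2 -1.26). The niche genes that were higher were Csf1, the macrophage growth factor (1215 against 883 CPM, log2 0.46), Tgfb1, and Nes, nestin, at 7.13, 6.42 and 6.54 CPM against 1.94, 3.43 and 2.98 CPM (log2 1.26). Ly6a, the stem cell antigen SCA-1, was outside this list and was lower (9.19 against 33.6 CPM, log2 -1.87). In these pooled cells, fewer cells of a kind and less RNA per cell cannot be told apart.

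**Figure D4:**
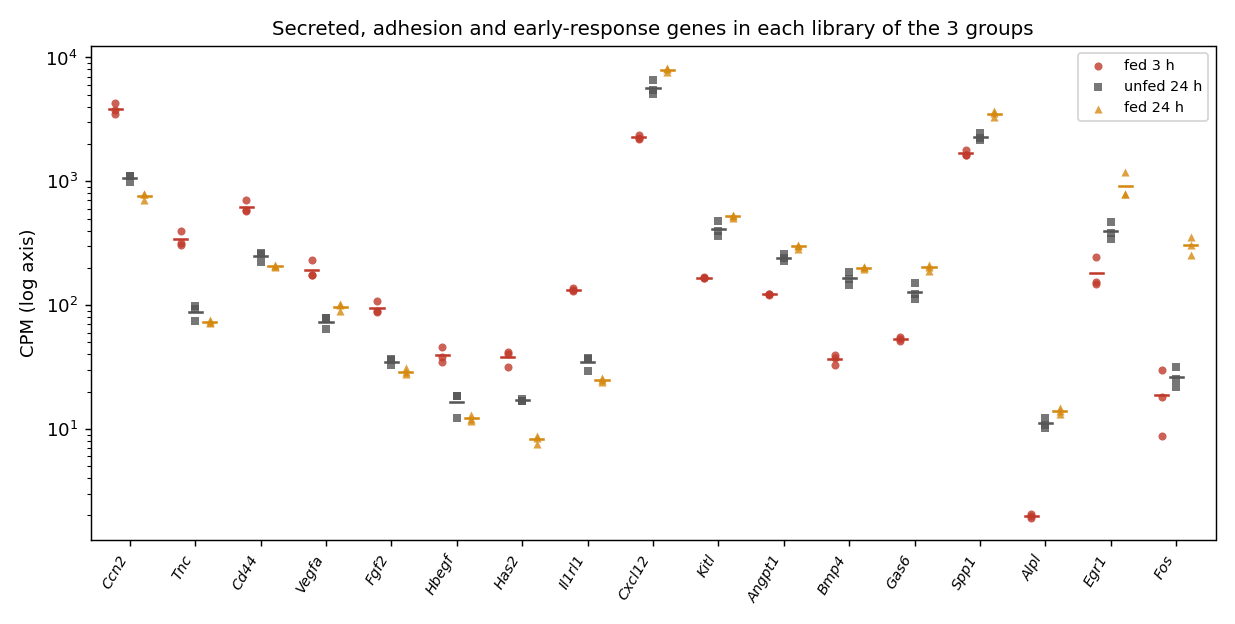
CPM on a log axis of 17 secreted, adhesion and early-response genes in each library: fed 3 h (red circles), unfed 24 h (grey squares) and fed 24 h (orange triangles), with bars at the group means. From Ccn2 to Il1rl1 the fed 3 h libraries lie above both other groups, those of Cxcl12 to Egr1 lie below both, and Fos overlaps between fed 3 h and unfed cells.

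The largest falls among abundant genes spanned log2 differences of -3.66 to -2.06 over 15 genes, many of which encode secreted proteins. Crocc2, named for its likeness to a ciliary rootlet protein, led them with 1.11, 0.892 and 0.699 CPM against 14.1, 9.04 and 11.1 CPM (log2 -3.66, SE 0.18, adjusted p = 3.32e-10). Hp, the haemoglobin-binding haptoglobin, had 5.76, 5.20 and 6.14 CPM against 57.0, 34.3 and 43.8 CPM (log2 -2.98, SE 0.15). Islr, a secreted protein of mesenchymal progenitors, had 4.00, 3.26 and 3.54 CPM against 34.7, 20.8 and 28.1 CPM (log2 -2.95, SE 0.15). In each of these the unfed libraries, at a far higher level, spread more in CPM than the fed ones, with replicate 1 highest. For Crocc2 the spread relative to the mean was similar in both groups. Il1rn, the interleukin 1 receptor antagonist, was the most abundant of the 15, with 130, 120 and 116 CPM against 709, 488 and 526 CPM (log2 -2.24, SE 0.10). The protease inhibitor Slpi had 3.03 against 13.4 CPM, angiotensinogen Agt 2.33 against 10.0 CPM, the collectin Colec10 2.03 against 11.5 CPM, and the matrix proteins Spon2 6.39 against 30.1 CPM and Sned1 17.2 against 77.8 CPM. Receptors and regulators in the set were Kctd12, an auxiliary subunit of GABA-B receptors (2.87 against 24.7 CPM), Mc5r, a melanocortin receptor (2.14, 2.15 and 2.52 CPM against 16.8, 11.7 and 13.5 CPM), and Trp63, a p53-family factor (7.77 against 32.4 CPM).

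Genes of the osteoblast lineage did not move as a block. Of 20 tested, 7 were higher and 6 lower, with a median of 0.14. Alpl, the alkaline phosphatase that prepares mineral formation (GRCm38 4:137741733-137796384, minus strand), had 1.97, 2.07 and 1.92 CPM against 12.3, 10.2 and 10.7 CPM, a log2 difference of -2.48 (SE 0.10, adjusted p = 6.35e-11) and a 5.57-fold lower mean. Sp7, osterix, was near the limit of detection and lower (0.392 against 0.787 CPM, log2 -1.01, SE 0.28, adjusted p = 0.00684). Spp1, osteopontin, had 1678 against 2279 CPM (log2 -0.44), and the homeobox factor Dlx5 had 5.98 against 11.4 CPM (log2 -0.93). Runx2, the master regulator of the lineage, did not differ beyond its spread, with 73.7, 72.2 and 64.4 CPM against 68.2, 69.2 and 71.3 CPM (log2 0.01, SE 0.06, adjusted p = 0.90). Tnfrsf11b, osteoprotegerin, the decoy that blocks osteoclast formation, was higher with 96.0, 81.7 and 89.6 CPM against 45.5, 52.3 and 52.5 CPM (log2 0.83, SE 0.07). The mineralization inhibitors Ank, a pyrophosphate exporter (405 against 245 CPM, log2 0.73), and Enpp1, which makes pyrophosphate (log2 0.38), were higher.

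Pathways that steer the lineage gave mixed counts. In the BMP group 6 of 21 genes were higher and 7 lower (61.9% in all against 50.6% of all genes). The target Id3 was at log2 -0.23, the inhibitory Smad6 at -0.41 and the receptor Acvr1 at 0.30. In the WNT group 7 of 27 were higher and 12 lower (median -0.06). The secreted WNT enhancer Rspo3 had 8.07, 9.07 and 7.99 CPM against 25.1, 20.6 and 22.3 CPM (log2 -1.44), and the secreted modulator Sfrp2 had 151 against 299 CPM (log2 -0.98). Lef1, a nuclear partner of beta-catenin, went the other way, with 10.9, 9.18 and 9.51 CPM against 2.80, 4.11 and 3.40 CPM (log2 1.52). In the Notch group 4 of 12 were higher and 3 lower, and Rbpj, the DNA-binding partner of all Notch receptors, had 27.8 against 52.4 CPM (log2 -0.91, SE 0.05).

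Nuclear genes for mitochondria gave different counts by function. Protein import factors were higher in 18 of 28 and lower in 2 (median 0.21). The outer-membrane receptor Tomm70a had 203, 198 and 202 CPM against 129, 148 and 152 CPM (log2 0.49), and the oxidative-folding factor Chchd4 had a log2 difference of 0.47. Regulators of mitochondrial biogenesis were higher in 11 of 20 and lower in 2 (median 0.14). Leaving out single libraries gave 8 to 10 higher. Pprc1, a growth-induced relative of PGC-1, had 121 against 89.1 CPM (log2 0.44), the factor Nrf1 57.2 against 45.6 CPM (log2 0.33), and Tfam, which packs mitochondrial DNA, 61.4 against 55.9 CPM (log2 0.14, SE 0.04, adjusted p = 0.019). The Tfam call was lost without unfed 24 h replicate 2 and without fed 3 h replicate 2 or 3, and with no filter (adjusted p up to 0.079). Ppargc1a, which encodes PGC-1 alpha, had 0 reads over the fed 3 h libraries and 1 over the unfed ones.

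Respiratory chain subunits encoded in the nucleus leaned the other way by small steps, with 1 of 75 higher and 28 lower (median -0.09). The number lower was 19 without fed 3 h replicate 1 and 36 without fed 3 h replicate 3. Of all genes 25.1% were higher and 25.5% lower, so the lean lay mainly in how few members were higher. The differences themselves were small. Ndufb2 of complex I had the largest difference (13.6 against 19.1 CPM, log2 -0.49). None of the 7 mitochondrially encoded mRNAs that passed the filter was called by edgeR, DESeq2 or limma-voom, 0 had an unadjusted p under 0.05, and their log2 differences lay between -0.18 and 0.16. Genes of fission and fusion were higher in 9 of 26 and lower in 3, 46.2% in all against 50.6% of all genes. The number higher was 5 without fed 3 h replicate 1, without unfed 24 h replicate 1 or with upper-quartile factors, and 4 without replicate 3 of either group. The fusion proteins Mfn2 (164 against 146 CPM, log2 0.17) and Opa1 (86.5 against 76.4 CPM, log2 0.18) were slightly higher. Mfn1 (log2 -0.05, adjusted p = 0.42) and the fission GTPase Dnm1l (log2 0.02, adjusted p = 0.72) were not called. In mitophagy 5 of 18 were higher and 6 lower (61.1% in all). The kinase Pink1 had 19.8, 18.8 and 20.2 CPM against 25.5, 23.9 and 23.3 CPM (log2 -0.31, SE 0.06) and the receptor Bnip3 a log2 difference of -0.79.

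Interferon-stimulated genes were lower or not called, with 0 of 37 higher and 22 lower (median -0.42). Parp14, an ADP-ribosyltransferase, had 7.44, 8.61 and 8.27 CPM against 17.9, 16.7 and 15.5 CPM (log2 -1.04, SE 0.08). The RNA sensors Ifih1 (12.5 against 21.6 CPM, log2 -0.79) and Ddx58 (20.3 against 34.6 CPM, log2 -0.77) were lower by similar amounts, as was Ifitm3 (176 against 265 CPM, log2 -0.59). NF-kappaB subunits and inhibitors were higher in 2 of 20 and lower in 9, the inhibitor Nfkbie having a log2 difference of -0.87 and the ubiquitin editor Tnfaip3 one of 0.33. Of 17 chemokines and cytokines 5 were higher and 5 lower. The monocyte attractants Ccl2 (29.4 against 47.1 CPM, log2 -0.68) and Ccl7 (41.9 against 74.2 CPM, log2 -0.82) were lower, and the cytokine Clcf1 was higher (log2 0.79). Il6 had 0 reads over the fed 3 h libraries and 9 over the unfed ones.

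Stress pathways gave different pictures. Chaperones of the endoplasmic reticulum and the unfolded protein response were higher in 3 of 28 and lower in 21 (median -0.24). Hspa5, the chaperone BiP, had 627, 608 and 617 CPM against 956, 1007 and 976 CPM (log2 -0.67, SE 0.04). The response factor Xbp1 had 78.6 against 135 CPM (log2 -0.79) and Sdf2l1, a BiP-associated protein, a log2 difference of -1.04, while the sensors Atf6 (log2 0.40) and Ern1 (log2 0.47) were higher. In the integrated stress response 11 of 28 were higher and 7 lower. The transcription factor Atf4 had 386 against 306 CPM (log2 0.33), Nupr1, a stress-induced chromatin protein, had 80.2, 76.2 and 75.8 CPM against 29.8, 38.6 and 36.3 CPM (log2 1.15), and Ddit4, an inhibitor of mTORC1, had a log2 difference of -0.81. Cytosolic chaperones were higher in 12 of 30 and lower in 2, 46.7% in all against 50.6% of all genes, with Hsp90aa1 at log2 0.32.

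Targets of NRF2, the regulator of antioxidant genes, were higher in 12 of 25 and lower in 7. Hmox1, which breaks haem into iron, carbon monoxide and biliverdin, had 335, 304 and 277 CPM against 114, 116 and 119 CPM (log2 1.39, SE 0.06, adjusted p = 8.58e-11). Txnrd1, thioredoxin reductase, had 860, 785 and 793 CPM against 288, 355 and 360 CPM (log2 1.28, SE 0.07), and Gclc, which limits glutathione synthesis, had a log2 difference of 0.72. The pentose phosphate enzyme G6pdx (log2 -0.42) and the ferritin heavy chain Fth1 (2953 against 3863 CPM, log2 -0.39) were lower. Among 18 iron genes 6 were higher and 7 lower, with the transferrin receptor Tfrc at 128.8, 118.9 and 124.8 CPM against 77.3, 111 and 115 CPM. The Tfrc difference (log2 0.30, adjusted p = 0.020) was lost without fed 3 h replicate 1 and with the DESeq2 test (adjusted p up to 0.0654).

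Genes of uptake and digestion moved in both directions. Of 29 engulfment genes 11 were higher and 9 lower, 69% in all against 50.6% of all genes, with log2 differences from -1.46 to 0.62 and a median of -0.07. Axl, the abundant receptor tyrosine kinase that recognises dying cells through bridging proteins, had 1332, 1227 and 1307 CPM against 893, 1005 and 937 CPM (log2 0.45, SE 0.05). Its bridging ligand Gas6 had 55.4, 51.1 and 53 CPM against 150, 112 and 123 CPM (log2 -1.27, SE 0.08). Receptor and ligand therefore differed in opposite directions, with no overlap in either. Tyro3, a second receptor of the family, was slightly higher (36.1 against 30.6 CPM, log2 0.24), and Mertk, the third, was at 0.351 against 0.410 CPM and not called (adjusted p = 0.64). The scavenger receptor Megf10 was higher (log2 0.62) and the adaptor Gulp1 lower (log2 -0.62). Lysosomal genes were higher in 12 of 39 and lower in 5 (median 0.03), 43.6% in all against 50.6% of all genes. The cathepsins Ctsl (log2 0.40) and Ctsk (log2 0.41) were among the higher and acid sphingomyelinase Smpd1 (log2 -0.44) among the lower. Autophagy genes were higher in 5 of 34 and lower in 14 (median -0.12), with the cargo receptor Sqstm1 at 528 against 403 CPM (log2 0.39) and its relative Nbr1 at log2 -0.39.

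Cell-cycle genes differed in small steps. Of 38 genes of DNA replication and S phase 21 were higher and 0 lower (median 0.17), with cyclin E1, Ccne1, at 48.8, 48.2 and 49.3 CPM against 32.0, 35.7 and 34.2 CPM (log2 0.52, SE 0.05). Of 30 genes of G2 and mitosis 11 were higher and 6 lower (56.7% in all), among them Cdk1 (log2 0.30) and Cdc25c (log2 -0.33). Of 14 D cyclins, their kinases and inhibitors 1 was higher and 8 lower, with the inhibitor Cdkn1b at log2 -0.30. In the p53 targets 8 of 24 were higher and 10 lower, and the BCL2 family split 5 to 5 among 14, with Bok, a pro-apoptotic member, at 111 against 75.8 CPM (log2 0.55). In glycolysis 9 of 22 were higher and 8 lower: the lactate carrier Slc16a1 had 88.7 against 50.7 CPM (log2 0.81), and Pdk1, which shuts pyruvate out of mitochondria, had 13.5 against 33.9 CPM (log2 -1.33). Hypoxia-inducible genes (6 of 19 higher, 8 lower), amino acid transporters (6 of 21 higher, 5 lower), proteasome subunits (4 of 31 higher, 4 lower in edgeR) and clock genes (5 of 20 higher, 4 lower) were mixed, and of 5 chondrocyte genes 0 were higher and 2 lower. The share called was 25.8% of proteasome subunits and 45% of clock genes, against 50.6% of all genes. The proteasome count varied with single libraries: 2 were higher without fed 3 h replicate 3 or unfed 24 h replicate 1 and 7 without unfed 24 h replicate 2, 2 were lower without fed 3 h replicate 1 or 2, and DESeq2 called 8 higher. In the lists above with 0 genes called by edgeR in one direction, DESeq2 and limma-voom also called 0 in that direction. An unadjusted p under 0.05 in it was reached by 1 gene, of the chondrocyte list. Without unfed 24 h replicate 3 edgeR called 1 chondrocyte gene and 1 gene of the liver X receptor list higher, and without unfed 24 h replicate 1 it called 1 S phase gene lower. Among mitochondrially encoded mRNAs 1 was higher without fed 3 h replicate 3 and 1 lower without fed 3 h replicate 1.

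Values of the fed 24 h libraries put the 3 h values in context, with the reservation that these cells differ from fed 3 h cells in time as well. Between the fed groups 8265 genes (60.9%) were called. Ccn2 had 761 CPM in fed 24 h cells, against 3861 CPM at 3 h and 1070 CPM in unfed cells. Cxcl12 had 7974 CPM in fed 24 h cells against 2275 CPM at 3 h and 5712 CPM in unfed cells, and Alpl had 14.01, 1.99 and 11.1 CPM. In each of these 3 genes the unfed mean lay between the means of the fed groups.

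Fos and Egr1 also had their highest mean at 24 h of feeding. Fos had 304 CPM in fed 24 h cells, 18.8 CPM in fed 3 h cells and 26.3 CPM in unfed cells. Egr1 had 925, 183 and 398 CPM in the same order. Over the 28 early-response genes tested, the 3 h level was called below the fed 24 h level in 15 and above it in 7. For the sterol gene Lss the fed 24 h mean (138 CPM) was close to the unfed mean (139 CPM) and the 3 h mean (45.3 CPM) was apart from both. Hmox1 likewise had 128 CPM in fed 24 h cells, 306 CPM at 3 h and 116 CPM in unfed cells. Over the 15 genes with the largest falls, the direct difference between fed 3 h and fed 24 h cells spanned -4.09 to -2.42 on the log2 scale.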

How the data were processed

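Per the submitters' processing notes, STAR 2.7.0f, Subread 1.6.4 (featureCounts), MultiQC 1.7 and the builds GRCm38.p6 and GRCh38.p13 were used. How mouse and human reads were separated, the annotation, strand and handling of reads with several matches were not given in the sources used here, and the protocols name different library kits. The deposited table holds raw read counts per gene symbol (55453 lines, 98.4% of the symbols in GENCODE M21, 26 turned into dates). Gene coordinates come from GENCODE M21. Reads of overlapping or antisense genes and of near-identical copies may be split between them.

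Counts of all 9 libraries were filtered with filterByExpr, scaled by TMM and fitted with edgeR 4.0.16 (quasi-likelihood F test, group only, Benjamini-Hochberg over 13568 genes) in R 4.3.3. The SE is the log2 difference over the square root of F. Checks ran on simulated counts. DESeq2 1.42.0 and limma 3.58.1 gave alternatives. Precision at this depth is set mainly by spread between libraries (common coefficient of variation 0.0536).

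The genes compared and the gene lists were chosen with earlier results of these data known. Named were the 15 largest rises and 15 largest falls (at least 10 CPM, groups apart, no clones, pseudogenes or ribosomal proteins), the 8 largest CPM changes each way, up to 4 called members of each list and direction (5 CPM or more), plus a set list of bone, niche, uptake and mitochondrial genes. Other genes named in the lists were picked after their values were seen, as were the sterol and TEAD motifs. Some named genes are not reported here.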

Additional observations from a re-analysis of the deposited data

Results flagged for a closer look

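Among a set list of bone, niche, uptake, mitochondrial and early-response genes, 14 are given because each was called on opposite sides of the same unfed libraries at 3 h and at 24 h of feeding. Only that list was searched, and the pattern is not particular to it: the 15 largest falls and Ccn2 also lay on opposite sides. A direct difference between fed 3 h and fed 24 h cells that passed edgeR's test was a further condition of entry. That all 14 pass it is therefore no separate result. Both comparisons share the unfed libraries, so the value that bears on them is the direct one, given first. Lower at 3 h were Alpl (-2.82, from -2.48 at 3 h and 0.34 at 24 h), Egr1 (-2.34, from -1.12 and 1.22), Gas6 (-1.92, from -1.27 and 0.65), Cxcl12 (-1.81, from -1.33 and 0.48), Sp7 (-1.74, from -1.01 and 0.73), Kitl (-1.64, from -1.30 and 0.34), Spp1 (-1.07, from -0.44 and 0.63) and Pink1 (-0.55, from -0.31 and 0.25). Higher at 3 h were Has2 (2.19, from 1.15 and -1.04), Hbegf (1.7, from 1.26 and -0.43), Tnfrsf11b (1.23, from 0.83 and -0.40), Axl (0.64, from 0.45 and -0.19), Tfam (0.39, from 0.14 and -0.26) and Mfn2 (0.28, from 0.17 and -0.11). Direct adjusted p-values ran from 1.09e-11 (Alpl) to 2.61e-05 (Sp7). Feeding time and time in culture cannot be told apart in them.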

How the results depend on the processing

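Over 15 alternatives (other scalings, DESeq2, limma-voom, other filters, a fit of the 6 libraries, leaving out single libraries), 341 of the 369 named genes called kept their call in every one in which they were tested (Sp7 in 14), 28 lost it in at least 1 and 0 changed direction. With no filter the prior degrees of freedom became infinite, so that fit did not use a gene's own spread, and it called Fos lower (adjusted p = 6.23e-15). Counts in lists with few called members moved with single libraries: lower AP-1 genes and lower integrins from 2 to 1, higher autophagy genes from 5 to 3, lower chaperones from 2 to 4, lower import factors from 2 to 1 and the 1 higher respiratory chain subunit to 0 or 2. With a filter of 5 CPM in 3 libraries (9872 genes tested), 101 genes were higher and 143 lower by a log2 of at least 1, and 14 of 20 tested interferon-stimulated genes were lower; fewer genes of low level were tested. Leaving out single libraries gave 3007 to 3310 higher and 2985 to 3344 lower genes, and 8 to 38 lower ribosomal proteins, of which 8, 17 and 12 came without fed 3 h replicate 1, fed 3 h replicate 2 and unfed 24 h replicate 1; the cause was not tested. Runx2 and Dnm1l, not called, crossed 0: Runx2 had -0.01 with upper-quartile factors, 0.00 with the stricter filter and -0.02 to 0.07 without single libraries, and Dnm1l had 0.00 with upper-quartile factors and 0.00 to 0.03 without single libraries. Same-numbered fed 3 h and unfed 24 h libraries did not deviate together (correlations -0.0326, -0.0446 and -0.163). With 3 libraries in each group this cannot show whether the numbers stand for shared cultures or batches. With a replicate block 3317 genes were higher and 3352 lower, and 4 named genes lost their call. Depth limits genes under 1 CPM, of which 23.0% were called.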
